A study of Mus musculus with 59 samples.

Results

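The clustered protocadherin locus was taken as the window from 37.085 to 38.005 Mb on mouse chromosome 18 (mm9), 920 kb that hold the alpha, beta and gamma protocadherin clusters. Its members were chosen by position and by the authors' own calls: every H3K27me3 island and every H3K27ac or H3K4me3 peak of each deposited list that overlaps the window. No difference between groups entered that rule. The locus itself was proposed with earlier results of these data known, and the p-values below do not account for that choice. The window held 812 of the 1107554 intervals in all lists, made up of 176 H3K27me3 islands, 383 H3K27ac peaks and 253 H3K4me3 peaks. No interval crossed an edge of the window. The weakest island among the members held 24 reads, and the lowest -log10 q among member peaks was 2.29.

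The lists came from chromatin immunoprecipitation and sequencing of mouse brainstem tumours and neurospheres that carry a tagged knock-in of the histone gene H3f3a, either with the K27M change or with the wild-type sequence (WT). Tumour mice were Nestin-creERT2; H3f3aLSL-K27M-Tag/+ or Nestin-creERT2; H3f3aLSL-WT-Tag/+, and both genotypes also carried LSL-PDGFRαV544ins and Trp53flox/flox. Tumours with an H3K27me3 and an H3K27ac list numbered 6 for K27M and 5 for WT, of which 2 and 3 also had an H3K4me3 list. Neurospheres are floating cultures of neural precursors, here from e15.5 embryos that were Nestin-cre with the K27M-Tag or the WT-Tag allele and without the PDGFRα and Trp53 alleles in their labels. H3K27me3 was profiled in 3 K27M and 3 WT hindbrain cultures and in 3 K27M forebrain cultures. Cre is driven by Nestin, a gene of neural precursors, and a tumour sample is whole snap-frozen tissue, so marks of tumour cells and of host cells are read together. Nothing in the labels says that each neurosphere culture came from a separate embryo, so each p-value refers to the scatter of these libraries, which may be technical.

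Clustered protocadherins are cell-adhesion proteins of neurons, and each neuron expresses a small, varying set of them that marks its surface and lets its own branches avoid each other. Every variable exon of the alpha and gamma clusters has its own promoter and is spliced to constant exons shared by the cluster, while each beta gene is a single exon. Promoter choice depends on DNA methylation, on CTCF and cohesin and on distal enhancers. H3K27me3 is the mark that Polycomb repressive complex 2 places at repressed genes, and the K27M histone is known to inhibit that complex. H3K4me3 is found at promoters, and H3K27ac at those promoters and enhancers that are active. In the RefSeq gene table of build GRCm38 the locus runs from 14 alpha genes (Pcdha1 to Pcdhac2) through 22 beta genes (Pcdhb1 to Pcdhb22) to 22 gamma genes (Pcdhga1 to Pcdhgc5). That build differs from mm9, so only this order was used: the start of the window is its alpha end and the close of the window its gamma end, and no peak is assigned to a gene, exon or UTR. The RefSeq table also lists 12 other genes inside the locus, among them Slc25a2 and Taf7, so a mark in the window need not belong to a protocadherin.

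Each H3K27me3 library had between 3208588 and 16323822 reads in its 6905 to 42879 islands. Peaks per list ranged from 36284 to 61251 for H3K27ac and from 28480 to 34291 for H3K4me3. Lists differed in how much of chromosome 18 they covered: WT tumours 8 and 11 had 1.28 and 1.16 Mb under islands there, against 1.87 to 8.60 Mb in the other tumours. K27M tumour 4 had the shortest tumour list, 13936 islands. Males made up 4 of the 6 K27M tumours but 1 of the 5 WT tumours. The labelled tissues could not be checked against marker genes, because no annotation of build mm9 was used here.

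In tumours, more of the protocadherin locus lay under H3K27me3 islands where the histone was K27M. Spike-in scale factors were not used, so this is a relative difference in called islands and not an absolute level of the mark. Islands covered 109, 196.4, 94, 27.6, 96.8 and 95.2 kb of the window in K27M tumours 1 to 6, and 21.4, 7.4, 18.8, 48.6 and 11.2 kb in WT tumours 7 to 11. All K27M tumours except tumour 4 lay above every WT tumour, so the groups overlapped through that 1 sample. The means were 103.2 ± 54.1 kb (SD, n = 6) and 21.5 ± 16.2 kb (SD, n = 5), a ratio of 4.80. The difference of 81.7 kb passed a two-sided exact permutation test (p = 0.00649, Benjamini-Hochberg adjusted over the 12 single-value comparisons 0.0390). Among autosomal windows of the same length, 3.12% passed the same test unadjusted with a higher K27M mean. Adjusted over all these windows, the exact permutation p of the locus was 0.310, and 0 windows passed.

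Read counts gave the same order with less overlap. Islands of the locus held 3445, 6269, 2676, 862, 2082 and 4149 reads in K27M tumours 1 to 6, and 595, 180, 485, 1959 and 269 reads in WT tumours 7 to 11. As a share of all autosomal island reads of the same library, these were 0.0422%, 0.0671%, 0.0329%, 0.0162%, 0.0887% and 0.0443% in K27M and 0.0112%, 0.00377%, 0.00755%, 0.0136% and 0.0143% in WT. The lowest K27M tumour, again tumour 4, stood just above the highest WT tumour, and the groups did not overlap. The mean shares were 0.0486 ± 0.0257% (SD, n = 6) and 0.0101 ± 0.00441% (SD, n = 5), a ratio of 4.82 (two-sided exact permutation p = 0.00433, adjusted over the 12 comparisons 0.0390). On this measure 10.2% of autosomal windows passed unadjusted with a higher K27M mean, and adjustment over all windows gave 0.0570 for the locus. As a share of island reads on chromosome 18 alone, the locus held 0.887% to 3.95% in K27M and 0.427% to 0.981% in WT tumours, so K27M tumour 4 then fell below WT tumour 11.

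Islands of the locus in K27M tumours were sparser in reads than their lists. They held 21.5 to 43.6 reads per kb in K27M tumours, below the 35.0 to 76.8 reads per kb over all autosomal islands of the same libraries in each of the 6. In WT tumours the locus stood at 24.0 to 40.3 reads per kb, against 24.2 to 47.7 over all autosomal islands. WT tumours 8, 9 and 10 were sparser in the locus than over the list, WT tumour 7 was not (27.8 against 27.4) and WT tumour 11 was nearly equal (24.02 against 24.20). The K27M locus therefore held more island length, at a read density within the range of the WT tumours except in tumours 5 and 6.

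Sex moves with genotype in these tumours, and its part in the difference was tested only as far as the numbers allow. Permuting genotype within each sex gave p = 0.0133 (exact, 75 arrangements) for covered length and the same p for the read share. Among females alone, 96.0 ± 1.13 kb (SD, n = 2) in K27M stood against 22.2 ± 18.6 kb (SD, n = 4) in WT, where the exact permutation p = 0.0667 is also the lowest value possible for 2 against 4. Taking only the 13936 islands with most reads of every tumour list reduced the covered length to 57.2 ± 36.5 kb (SD, n = 6) against 10.2 ± 5.46 kb (SD, n = 5), with an exact permutation p = 0.00866.

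**Figure D1:**
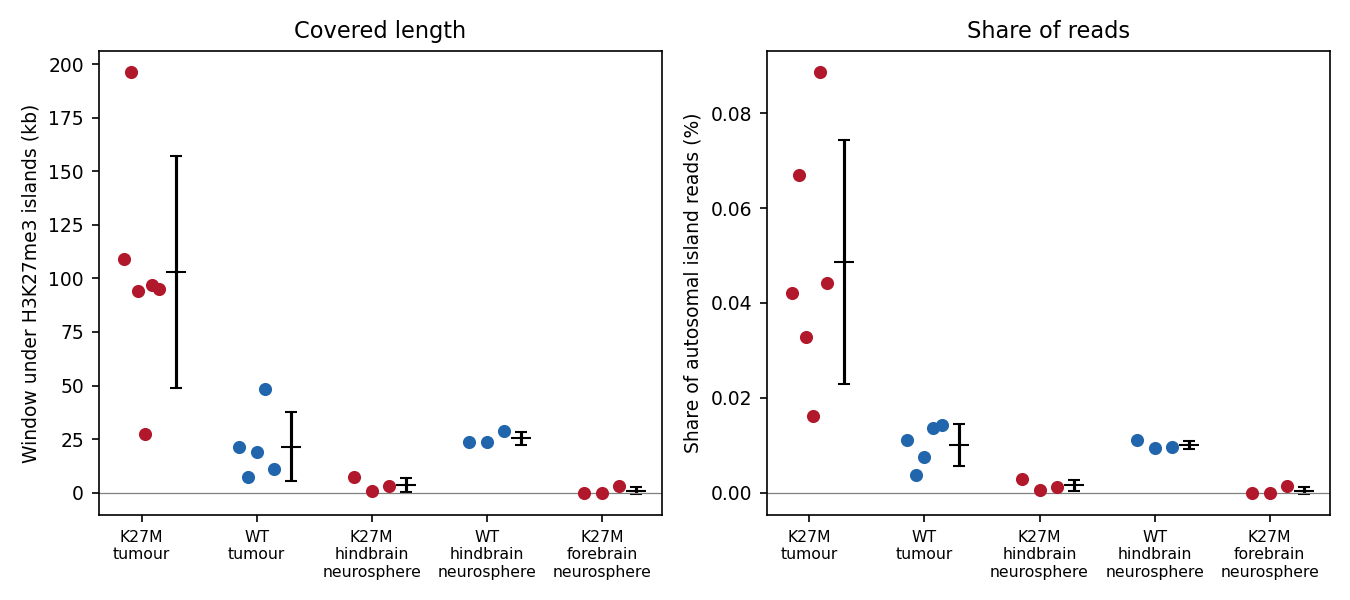
Covered length in kb (left) and share of autosomal island reads in percent (right) for the protocadherin locus, by group. Each point is 1 library and the bar beside it is the mean with its SD. K27M tumours range from 27.6 to 196.4 kb and WT tumours from 7.4 to 48.6 kb, while K27M hindbrain neurospheres (0.6 to 7.2 kb) lie below WT hindbrain neurospheres (23.6 to 29 kb).

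The window was divided into 4 equal segments of 230 kb. Island cover was greatest in segment 4, the gamma end, in every K27M tumour and in WT tumours 7, 8, 9 and 11. WT tumour 10 had 18 kb there and 18 kb in segment 2. The 3 WT hindbrain cultures also had their largest cover in segment 4 (10.4 to 19.2 kb), so this position was not particular to K27M tumours. In segment 4, from 37775000 on, K27M tumours 1 to 6 had 89.8, 101.2, 67.8, 21.0, 48.8 and 69.4 kb under islands, and WT tumours 7 to 11 had 13.8, 5.0, 13.4, 18 and 8.2 kb. Every K27M tumour exceeded every WT tumour there, as in 0.884% of autosomal segments of this length that held an island in a tumour. At the alpha end, segment 1 (up to 37314999), the K27M range was 6.6 to 28 kb and the WT range 0 to 5.4 kb. In segments 2 and 3 the genotypes overlapped, with 0 to 33.0 kb and 0 to 34.2 kb in K27M tumours against 0 to 18 kb and 0 to 7.20 kb in WT tumours. K27M tumour 2 was the tumour with the most cover in each of the 4 segments. Of 92 bins of 10 kb, 44 had no island in any tumour, 30 had islands in K27M tumours only and 3 in WT tumours only. Of autosomal bins with an island in any tumour, 18.4% were K27M-only and 24.2% WT-only, against 30 and 3 of the 48 such bins here.

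**Figure D2:**
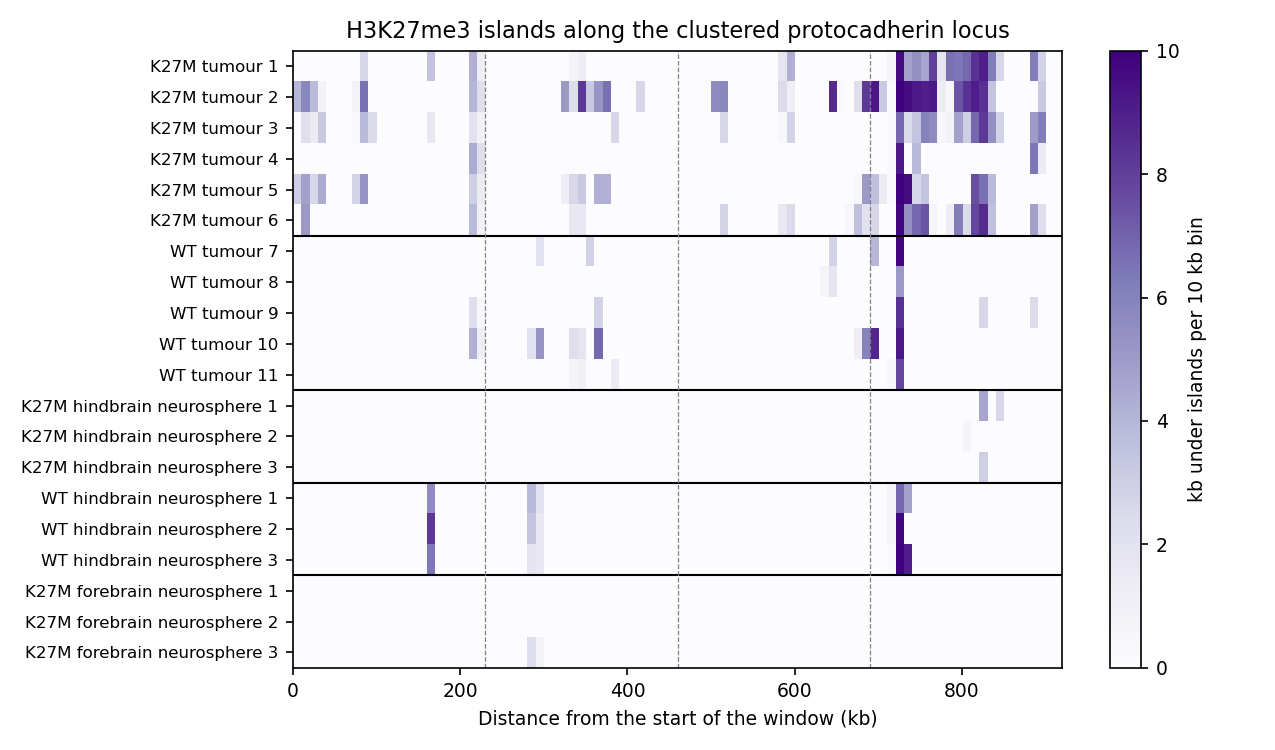
H3K27me3 islands along the locus, with 1 row per library and distance from the start of the window in kb on the horizontal axis. Colour gives the kb under islands in each 10 kb bin, dashed lines divide the window into 4 segments and black lines separate the groups. A single bin near 720 kb is covered in all 11 tumours and all 3 WT hindbrain cultures, and cover beyond it is seen mainly in K27M tumours.

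Islands of the 11 tumours merged into 40 regions of the locus. Of these 27 were called only in K27M tumours, 2 only in WT tumours and 11 in both. Over the genome 27.5% of merged regions were K27M-only and 28.6% WT-only. A higher share of K27M than of WT tumours called 33 of the 40 regions and the reverse held for 6, while over the genome 39.8% of merged regions were called by a higher share of K27M tumours. At the gamma end, 10 of the 13 merged regions were K27M-only, and at the alpha end 9 of 10. In segments 2 and 3 these were 4 of 10 and 4 of 7. Of the 27 K27M-only regions, 10 were called in at least 3 K27M tumours, a class that makes up 1.82% of merged regions over the genome.

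The region with the most reads, 37804401 to 37824600 (20.2 kb, gamma end), was an island in all 11 tumours. It held 575, 1067, 251, 372, 486 and 919 reads in K27M tumours 1 to 6 and 356, 131, 234, 629 and 206 reads in WT tumours 7 to 11. It was the only region of the locus common to all tumours, and the groups overlapped. Its log2 fold, K27M over WT, was 0.69 (SE 0.40, edgeR quasi-likelihood adjusted p = 0.282), with an adjusted p between 0.131 and 0.487 when 1 tumour was left out and 0.141 with sex in the model. In that fit 7.11% of the 3067 common regions were higher in K27M, and 0 of 1 in the locus were, also at an unadjusted p under 0.05 and in DESeq2.

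Just beyond it, the region 37825801 to 37856400 (30.6 kb) was an island in all 6 K27M tumours and in none of the 5 WT tumours. It held 502, 874, 393, 79, 143 and 588 reads in K27M tumours 1 to 6, tumour 4 again having the fewest. It was the only fully separated region of the locus, where 0.164% of the 57859 merged regions of the genome were in every tumour of one genotype and none of the other. Leaving out K27M tumour 4 gave 2 such regions, and asking that 50% of the region be covered gave 0. By Fisher's exact test it had p = 0.00216, adjusted over the genome 0.253. The region 37890401 to 37900600 was called in 5 K27M tumours (233, 322, 168, 72 and 184 reads in tumours 1, 2, 3, 5 and 6) and no WT tumour (Fisher's exact p = 0.0152, adjusted 0.253). These 2 of 13 tested regions of the locus had an unadjusted p under 0.05, each with more calls in K27M tumours. Over the genome 2.20% of tested regions did so in that direction, and 676 of 11285 in either direction. In the locus 0 passed adjustment.

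The other regions with most reads lay in segments 4, 1 and 3. Region 37901001 to 37918800 had 633, 600, 550, 315 and 731 reads in K27M tumours 1, 2, 3, 5 and 6, no island in K27M tumour 4, and 58 reads in WT tumour 9 as its only WT call. Region 37300601 to 37307200, at the alpha end, was called in all 6 K27M tumours with 116 to 271 reads and in WT tumours 9 and 10 with 77 and 198 reads. Region 37772001 to 37788200 was called in K27M tumours 2, 5 and 6 with 419, 144 and 160 reads and in WT tumours 7 and 10 with 82 and 307 reads. WT tumour 10, whose list held the most island reads of all, accounted for the largest WT value in both of the last regions.

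Set against windows of the same length across the autosomes, the locus lay in the upper tail of the tumour difference. Its 81.7 kb ranked 37th of 2434 windows that held an island in any tumour. The median window went the other way, at -4.94 kb, and 32.3% of windows had a higher mean in K27M. By mean cover the locus ranked 1569th of the 2434 windows in WT tumours and 547th in K27M tumours. By the difference in share of autosomal island reads, K27M minus WT, it ranked lower than by length, at 153rd. A read test over these windows, chosen after these values were seen, gave the locus a log2 fold of 2.31 (SE 0.49, edgeR quasi-likelihood adjusted p = 0.0207) where the median window stood at -0.24. In that test 3.16% of windows were higher in K27M, and the locus ranked 108th by log2 fold. The adjusted p rose to 0.0526 without K27M tumour 6 and to 0.0515 without WT tumour 7, which ends the call, and ranged down to 0.0200 when other tumours were left out. In counts simulated like these, 39.5% of windows changed 4-fold were recovered.

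**Figure D3:**
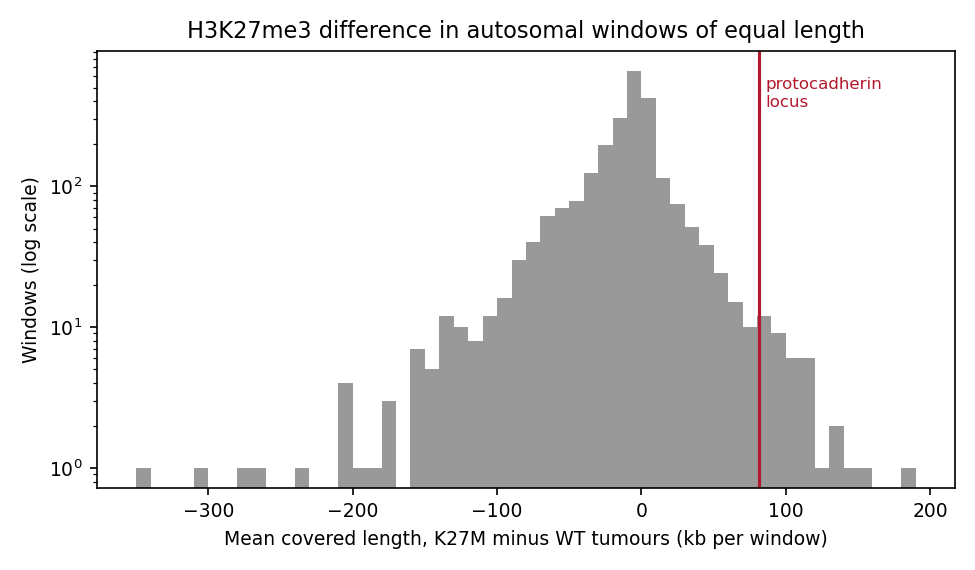
Difference in mean covered length between K27M and WT tumours for 2434 autosomal windows of the length of the locus. The horizontal axis is in kb per window, the vertical axis counts windows on a log scale, and the red line is the protocadherin locus at 81.7 kb, ranked 37th from the top.

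Hindbrain neurospheres differed by genotype in the opposite direction. Islands covered 7.2, 0.6 and 3.0 kb of the locus in K27M cultures 1 to 3 and 23.6, 23.6 and 29.0 kb in WT cultures 1 to 3. All 3 K27M cultures were female, while WT culture 3 was male and WT cultures 1 and 2 were female. The groups did not overlap, with means of 3.60 ± 3.34 kb (SD, n = 3) and 25.4 ± 3.12 kb (SD, n = 3), and the exact permutation p = 0.1 is the smallest that 3 against 3 allow (adjusted 0.2). The same separation with lower cover in K27M was found in 80.5% of autosomal windows, so the locus moved as most of the genome did. Island reads of the locus numbered 154, 24 and 62 in K27M and 689, 657 and 871 in WT cultures. As a share of autosomal island reads they were 0.00289%, 0.000548% and 0.00130% against 0.0111%, 0.00948% and 0.00960%, also without overlap (exact permutation p = 0.1), as in 61.2% of windows.

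The 2 hindbrain genotypes had islands at different places in the locus. All 3 WT cultures had islands at 37245001 to 37253200 (169, 194 and 183 reads), at 37371201 to 37377000 (136, 132 and 95 reads) and at 37804401 to 37824400 (384, 331 and 593 reads), and no K27M hindbrain culture did. These are 3 of the 7 merged hindbrain regions of the locus, where 16.6% of hindbrain regions over the genome were fully separated. The last of them is the island that all 11 tumours also had. The K27M islands lay closer to the gamma end, at 37892001 to 37892600 (24 reads in culture 2), 37906601 to 37909200 (49 reads in culture 1), 37911401 to 37914400 (45 and 62 reads in cultures 1 and 3) and 37926201 to 37928800 (60 reads in culture 1). None of these was an island in a WT culture, and all 7 neurosphere regions overlapped 1 of the 40 tumour regions.

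No hindbrain region of the locus was common to all 6 libraries, so the planned read test had 0 regions there, with 0 at an unadjusted p under 0.05 in edgeR and 0 in DESeq2. The window read test chosen later gave a log2 fold of -1.78 (SE 0.59, edgeR quasi-likelihood adjusted p = 0.0486), with a median window at -0.67 and 28.3% of windows lower in K27M. The call was lost with experiment as a replicate block (adjusted p = 0.0674) and in 5 of the 6 fits that left out 1 culture. Without TMM factors the fold was -2.67, and the median of all windows fell to -1.59. The genotype effect in tumours minus that in hindbrain cultures was 4.18 on the log2 scale (SE 0.85, edgeR adjusted p = 0.00260). In that interaction 14.0% of windows were called higher and the median window stood at 0.41.

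Forebrain K27M cultures had almost no islands in the locus. Covered length was 0, 0 and 3.0 kb in cultures 1 to 3, the single island lying at 37372801 to 37375800 with 57 reads. The mean of 1.00 ± 1.73 kb (SD, n = 3) stood below the 3.60 ± 3.34 kb (SD, n = 3) of K27M hindbrain cultures, and the groups overlapped (exact permutation p = 0.3, adjusted 0.4). For 3 against 3 this p cannot go below 0.1, so the test could not have passed. The forebrain island fell in the region 37371201 to 37377000, which all 3 WT hindbrain cultures and no K27M hindbrain culture had.

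Tumours and cultures of the same histone genotype were also set side by side. K27M tumours (27.6 to 196.4 kb) lay above K27M hindbrain cultures (0.6 to 7.2 kb) without overlap, a difference of 99.6 kb (exact permutation p = 0.0119, the smallest possible, adjusted 0.0476). The call was lost in 5 of the 9 comparisons that left out 1 library (without K27M tumours 1, 3, 5 or 6 or culture 2), with an exact permutation p of up to 0.0714. In 39.6% of windows the same test passed with more cover in the tumours. The tumours lay above the cultures without overlap in 1093 of 2326 windows. For the read share the exact permutation p was 0.0357 (adjusted 0.107), where 40.3% of windows passed. WT tumours (21.5 ± 16.2 kb, SD, n = 5) and WT hindbrain cultures (25.4 ± 3.12 kb, SD, n = 3) overlapped, and their shares of 0.0101% each were not distinguished (exact permutation p = 0.75 for length and 0.982 for share). With the 18604 islands of most reads in each list, the WT tumours had 10.7 ± 5.37 kb (SD, n = 5), below the cultures (exact permutation p = 0.0179). The difference in length, -3.92 kb over whole lists, was -0.4 kb without WT tumour 8, -1.35 kb without WT tumour 11, -2.12 kb without culture 3 and -10.7 kb without WT tumour 10. These tumours carry PDGFRα and Trp53 alleles that the cultures lack, so tissue and genotype cannot be told apart in either comparison.

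H3K4me3 peaks lay in all 4 segments of the locus in both genotypes, but not evenly. Over the 5 tumours, segment 4 held the most (18.9 to 23.0 kb) and segment 3 the least (2.70 to 6.87 kb). No tumour had a peak between 37678912 and 37802269. Peaks covered 42.2 and 42.4 kb in K27M tumours 2 and 6 and 47.3, 40.4 and 38.0 kb in WT tumours 7, 9 and 10. The K27M values lay inside the WT range, with means of 42.3 ± 0.177 kb (SD, n = 2) and 41.9 ± 4.82 kb (SD, n = 3). The exact permutation p was 1, where 2 against 3 cannot go below 0.1. The window held 64 and 50 peaks in the K27M tumours and 53, 44 and 42 in the WT tumours. These merged into 78 regions, 22 of them called in all 5 tumours, 14 only in K27M tumours and 11 only in WT tumours. Over the genome 48.6% of merged H3K4me3 regions were called in all 5 tumours, 13.0% only in K27M and 17.6% only in WT tumours.

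Promoter-type peaks of the locus were weaker than the rest of their lists. The authors' fold enrichment had a median of 5.93 to 7.81 in the locus and of 9.19 to 11.7 over each whole list, lower in the locus in all 5 tumours. The strongest peak, 37965384 to 37970661 at the gamma end, had an authors' fold of 34.6 and 20.5 in K27M tumours 2 and 6 and of 49.2, 32.2 and 44.9 in WT tumours 7, 9 and 10. The next were 37802269 to 37804547 (24.98 to 45.6 over the 5 tumours), 37302698 to 37305189 (27.6 to 36.4), 37424197 to 37425472 (19.3 to 31.0) and 37248874 to 37250664 (12.6 to 29.9). The second of the 5 overlaps the start of the island that all tumours shared, and the third lies within the alpha-end island 37300601 to 37307200.

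Peaks called in 1 genotype alone were mostly weak. Both K27M tumours and no WT tumour had peaks at 37179702 to 37180715 (authors' fold 10.7 and 13.1), 37460499 to 37461150, 37644647 to 37644968, 37649105 to 37649573 and 37981606 to 37982193, the last 4 at 3.43 to 8.54. All 3 WT tumours and no K27M tumour had peaks at 37560404 to 37561456 (10.9, 4.80 and 6.58) and 37970888 to 37971387 (5.43, 3.60 and 4.39). With 2 against 3 tumours no single peak can reach an unadjusted p under 0.05. Peaks separated by genotype in this way were not counted over the genome, so this list does not set the locus apart.

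H3K27ac peaks were also found in all tumours, and 52 of their 68 merged regions met an H3K4me3 region. Covered length was 41.7, 25.5, 16.0, 14.9, 13.6 and 23.2 kb in K27M tumours 1 to 6 and 40.3, 22.8, 26.3, 40.9 and 20.5 kb in WT tumours 7 to 11. The groups overlapped over most of their range, with K27M tumour 1 the highest of all and K27M tumours 3, 4 and 5 below every WT tumour. The means were 22.5 ± 10.6 kb (SD, n = 6) and 30.2 ± 9.77 kb (SD, n = 5), a difference of -7.68 kb that did not pass (exact permutation p = 0.232, adjusted 0.397). It was -11.5 kb without K27M tumour 1 (exact permutation p = 0.0556) and -4.99 kb without WT tumour 10 (exact permutation p = 0.462). More than any other stretch, the gamma end was acetylated: segment 4 held 10.3 to 30.8 kb of peaks in K27M tumours, and the WT range was 16.1 to 29.6 kb.

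The 383 acetylation peaks merged into 68 regions, of which 8 were called in all 11 tumours, 11 only in K27M tumours and 13 only in WT tumours. Over the genome these shares were 15.2%, 24.5% and 25.8% of merged regions. None was in every tumour of one genotype and none of the other, as 0.0303% were over the genome. By Fisher's exact test 0 of 12 tested regions had an unadjusted p under 0.05, against 2.44% over the genome, so these counts do not set the locus apart. The strongest region was 37977929 to 37987891 at the gamma end, with an authors' fold of 18.5, 12.1, 8.12, 7.97, 9.03 and 13.3 in K27M tumours 1 to 6 and of 20.3, 17.0, 17.6, 31.0 and 18.3 in WT tumours 7 to 11. These folds are each peak's own value in its list, and they were not tested across lists. Regions 37965409 to 37969263, 37803084 to 37804438, 37302956 to 37304604 and 37998848 to 38003992 followed, all called in the 11 tumours. The first 3 of these 4 lie under the 3 strongest H3K4me3 peaks. Among regions of 1 genotype, 37424598 to 37424943 and 37119985 to 37120412 were each called in 2 K27M tumours, and no WT-only region was called in more than 2 of the 5 WT tumours.

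**Figure D4:**
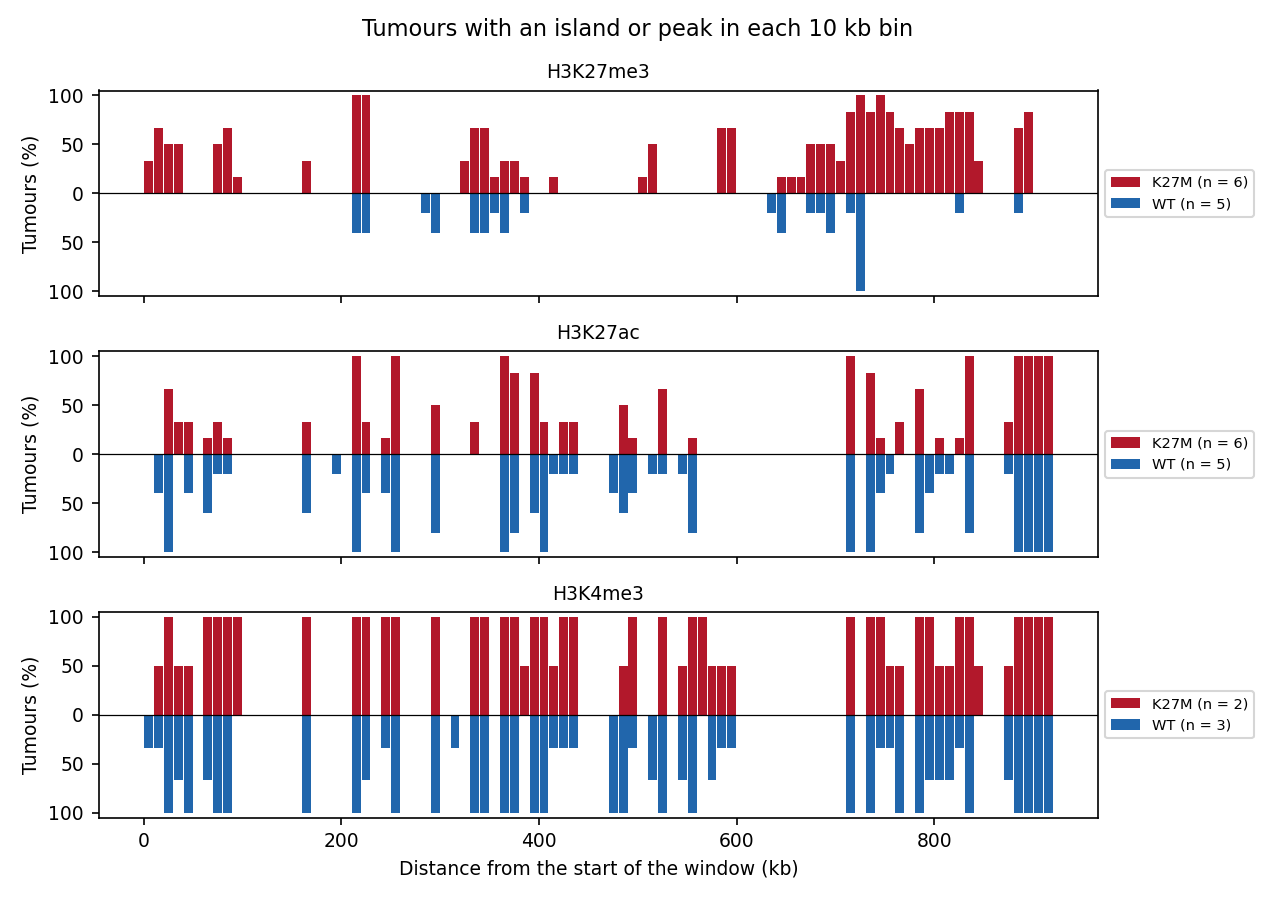
Percent of tumours with an H3K27me3 island, an H3K27ac peak or an H3K4me3 peak in each 10 kb bin, against distance from the start of the window in kb. K27M tumours are drawn upward in red and WT tumours downward in blue. For H3K27me3, 30 bins have bars only upward and 3 only downward, while most bins with H3K4me3 or H3K27ac have bars both ways.

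Some H3K4me3 peaks of the locus lay under islands, more of them in the K27M than in the WT tumours. In K27M tumours 2 and 6, 25 of 64 and 13 of 50 H3K4me3 peaks of the locus overlapped an island of the same tumour, which is 39.1% and 26.0%. In WT tumours 7, 9 and 10 the numbers were 0 of 53, 2 of 44 and 4 of 42, or 0%, 4.55% and 9.52%. Over whole lists the share was 23.7% to 29.1% in all 5 tumours. K27M tumour 6 was thus close to its list (24.5%), K27M tumour 2 above it (28.3%) and the 3 WT tumours below theirs. Counted from the islands, 19 of 30 and 12 of 21 islands of the locus met an H3K4me3 peak in K27M tumours 2 and 6, and 0 of 5, 2 of 5 and 3 of 8 in WT tumours 7, 9 and 10. As percentages these are 63.3% and 57.1%, then 0%, 40% and 37.5%, above the list (16.8% to 26.2%) in every tumour except WT tumour 7.

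Acetylation peaks showed the same order. In K27M tumours 1 to 6, 25.0%, 26.7%, 26.9%, 13.0%, 17.4% and 23.3% of the H3K27ac peaks of the locus overlapped an island of the same tumour, each above that tumour's share over its whole list (9.03% to 21.6%). In WT tumours 7 to 11 the shares were 0%, 0%, 5.41%, 4.44% and 0%, each below the share over the list (4.53% to 14.3%). The few WT islands of the locus went the other way in WT tumours 9 and 10, where 2 of 5 and 2 of 8 met an H3K27ac peak (40% and 25%, lists 10.8% and 13.1%). Length under islands in the locus differed between the genotypes in the same direction, and its part in these shares was not tested. Bulk tissue does not show whether 2 marks lie on the same chromosome or in different cells, nor can fewer marked cells and less mark per cell be told apart.

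**Figure D5:**
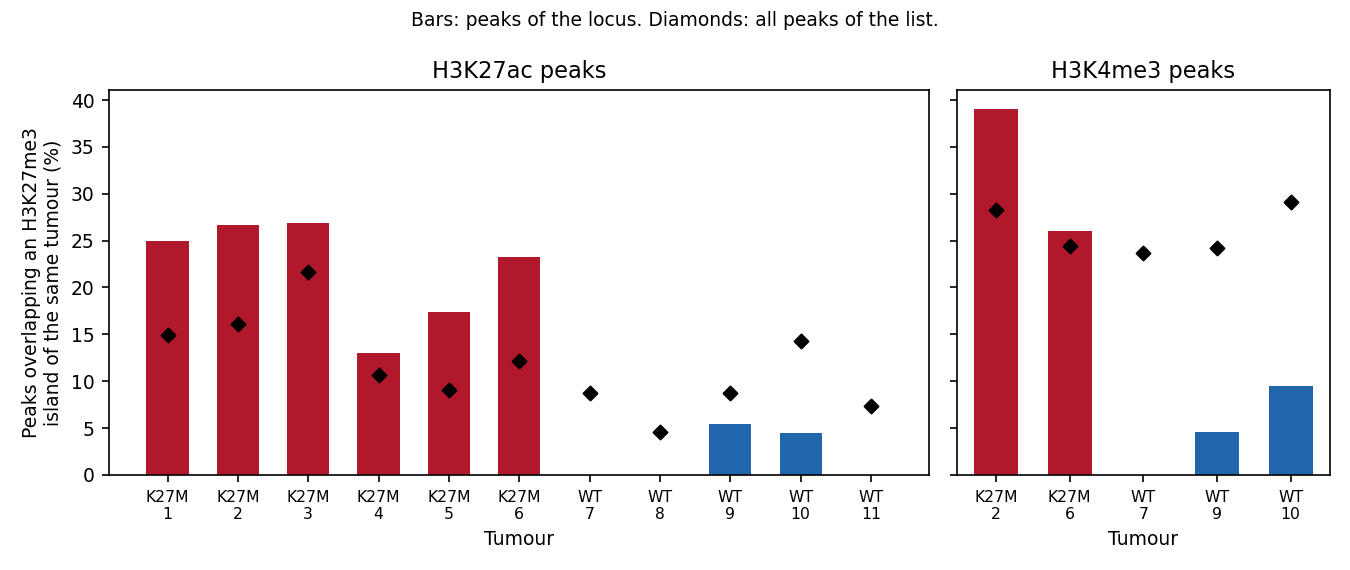
Percent of H3K27ac peaks (left, 11 tumours) and H3K4me3 peaks (right, 5 tumours) that overlap an H3K27me3 island of the same tumour. Bars are peaks of the protocadherin locus (red K27M, blue WT) and diamonds are all peaks of the list. Bars exceed the diamond in every K27M tumour and fall below it in every WT tumour.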

How the data were processed

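Per the labels' protocols Drosophila S2 chromatin was spiked in, but its scale factors were not used here, so values are relative and not absolute. Build mm9 comes from the submitters' processing notes, which also list, without roles, SICER 1.1, MACS2, BWA 0.7.12, bedtools 2.25.0, R 2.14.0, SAMtools and Picard. The 20 deposited H3K27me3 lists give the count of whole reads per island (window 200 bp, gap 600 bp and false discovery rate 0.00001 per the file names). The 16 deposited narrowPeak lists hold the authors' -log10 q-value (at least 2 everywhere), -log10 p-value, fold enrichment ratio and score of each peak. Each list is 1 sample. Input DNA, the remaining 23 samples, was not analysed here.

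Groups follow the labelled antibody, tissue and genotype. Covered length is the summed length of the islands or peaks of a list, clipped to the window. A place without an island has no count, so its level is unknown, and the depth of each library beyond its islands is unknown. Means were compared by two-sided exact permutation tests with Benjamini-Hochberg adjustment over 12 comparisons. Regions are unions of overlapping intervals (1 bp or more) from the libraries compared. Background is 2676 autosomal windows tiled at the length of the locus, of which those with an island in a comparison were tested. For regions called in all libraries, reads entered a quasi-likelihood test in edgeR 4.0.16 under R 4.3.3, with TMM factors and an adjusted p under 0.05 as the threshold. DESeq2 1.42.0, other scalings and filters, sex or a replicate block, stricter q, top-ranked lists, other overlap rules and each library left out were alternatives. The tests were tried on simulated data: 94.5% of common tumour regions changed 4-fold were recovered among 3067. Other steps used Python 3.11.15, numpy 2.4.6 and pandas 2.3.3.

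Named regions are the 5 H3K27me3 regions with most reads, the 5 peaks of each other mark with the highest mean authors' fold, and up to 5 H3K4me3 peaks called in 1 genotype. Region 37890401 to 37900600 was named for its Fisher p after its values were seen. The locus was proposed, and its members and lists were chosen, with earlier results of these data known.

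Neurosphere groups share experiment ids in the labels, which pairs their libraries. The main tests were unpaired, and experiment as a block was an alternative. Deviations from group means correlated at 0.20, 0.24 and 0.21 for same-numbered forebrain and hindbrain K27M libraries, and at 0.10, -0.03 and 0.02 for hindbrain K27M and WT.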

Additional observations from a re-analysis of the deposited data

Results flagged for a closer look

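WT tumour 10 had 18 kb under H3K27me3 islands in segment 2 of the locus, set apart from the other WT tumours by a gap of 0.733 of the group's range, where 0.71 is the 95% limit of Dixon's test for 5 samples. K27M tumour 2 had 34.2 kb in segment 3, with a gap of 0.626 of the range against a limit of 0.625 for 6 samples. Chance flags about 1 in 20 groups, and 18 groups were looked at. The genotype difference of the locus in tumours minus that in hindbrain neurospheres was 4.18 on the log2 scale (SE 0.85, edgeR quasi-likelihood adjusted p = 0.00260), tested over 2459 windows by a contrast chosen after the values were seen. It stayed between 3.81 and 5.16 when any 1 of the 17 libraries was left out, with an adjusted p of at most 0.00883. By this difference the locus ranked 461st of the 2459 windows, and 14.0% of windows were called higher.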

How the results depend on the processing

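Over 24 results, 246 of 284 alternatives kept direction and side of the threshold. Some of them could not change side. For 3 against 3 cultures the exact permutation p cannot go below 0.1. The planned read tests of cultures had 0 regions of the locus. The tumour differences in covered length and read share held in every fit without 1 tumour (63.0 to 96.8 kb, 0.0304 to 0.0449 percentage points). Females alone gave 73.9 kb and 0.0558 percentage points, at the smallest p possible there. K27M tumours exceeded K27M hindbrain cultures by 80.9 to 114.7 kb and 0.0390 to 0.0534 percentage points when 1 library was left out. The length call was lost without K27M tumours 1, 3, 5 or 6 or culture 2, and the unadjusted share call without K27M tumours 1, 3 or 6 or any culture. WT tumours minus WT hindbrain cultures ranged from -10.7 to -0.4 kb and from -0.00104 to 0.00160 percentage points without 1 library. With equal numbers of top-ranked islands they gave -14.7 kb, past the threshold, and -0.00287 percentage points, and as a share of island length -0.00467 percentage points. The H3K4me3 difference, near 0, was -0.969 kb at -log10 q of at least 5, -2.54 kb with equal lists and -1.56 to 3.09 kb without 1 tumour. Fully separated tumour regions numbered 1 to 2 without 1 tumour and 0 at 50% cover. Hindbrain ones numbered 1 with equal lists, and forebrain ones 0 to 1 without 1 library. The tumour window fold ranged from 2.01 to 2.53, and the hindbrain one from -2.51 to -1.32 without 1 library. With the replicate block the hindbrain fold was -2.04, past no threshold, and the block changed no other call where it was fitted, with 0 regions of the locus in either planned fit. The forebrain window fold ranged from -9.12 to -0.95, the first where the remaining forebrain libraries held no island, so it depends on the prior count and is no bound. For the changes in calls the cause was not tested. Depth outside islands is unknown, so a place without an island may carry the mark below the calling limit.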
